A study of Homo sapiens with 6 samples.

Results

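The genes that encode the proteasome were followed in cells labelled Huh7, a human hepatocellular carcinoma line, that carried a plasmid for the long noncoding RNA TP53TG1 or an empty plasmid. Members were all genes whose deposited symbol is PSMA, PSMB, PSMC, PSMD, PSME, PSMF or PSMG followed by digits alone, which gave 48 of the 58233 genes listed. Of these, 46 reached a mean of 1 FPKM (fragments per kilobase of transcript, divided by sequencing depth) over the 6 libraries and entered the test. The remaining pair, PSMA8 and PSMB11, which encode core subunits known from the testis and from the thymus, was listed at 0 in all 6 libraries. A further 37 names that start like a member but hold more letters were left out, 31 of them pseudogenes.

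The proteasome degrades proteins that carry ubiquitin chains. Its core particle (20S) is a barrel of alpha rings, which form the gate, and beta rings, which hold the proteolytic sites. The regulatory particle (19S) binds, unfolds and deubiquitinates substrates with a ring of ATPases and a set of non-ATPase subunits, and smaller activators can take its place on the core. Interferon-gamma is known to induce PSMB8, PSMB9 and PSMB10, which replace the constitutive catalytic subunits PSMB5, PSMB6 and PSMB7 in the immunoproteasome, along with the activator genes PSME1 and PSME2.

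RNA sequencing was done on 3 libraries with the empty plasmid (control) and 3 with the TP53TG1 plasmid, each numbered 1 to 3. Both groups were transfected, and the labels name no other agent, time or clone. No label states that the replicates came from separate cultures, and the p-values then measure only how far these samples spread, which may be technical. The transfected gene was at 10.6, 5.25 and 6.15 FPKM in control libraries and reached 69.8, 134 and 70.5 FPKM with its plasmid, in the order of replicates 1 to 3, and the groups did not overlap.

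FPKM are not scaled between libraries, and they summed to between 599081 and 890541 per library. Small structured RNAs took 6.59% of that sum in TP53TG1 replicate 1 and 0.249% to 1.52% in the other 5 libraries. The median log2 fold change over all 12853 tested genes, TP53TG1 minus control, was -0.35. Medians of the proteasome groups are therefore given relative to that median, and some single genes also after median-of-ratios scaling. Such scaling divides every library by 1 factor (0.601 for TP53TG1 replicate 1 and 1.006 to 1.19 for the others). A fold change given alone is unscaled and is to be read against -0.35, not against 0. Of 46 tested members, 42 lay below 0 without scaling and 41 lay above 0 after it. Control replicate 1 and TP53TG1 replicate 1 both stood apart: the mean length of coding transcripts, weighted by FPKM, was 1311 and 1228 nt in them and 1652 to 1710 nt in the other 4. Read from the step between low values, 1 FPKM of a transcript of 1000 nt rests on roughly 11.2 to 15.5 fragments, an estimate that depends on how the step is read. Of 10 hepatocyte markers 7 reached a mean of 1 FPKM, while ALB, APOA1 and TTR, which define the cell type, stayed below it.

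Proteasome genes were well expressed, and none was called between the groups. Their summed FPKM was 5819, 5012 and 5013 in control replicates 1 to 3 and 3909, 4536 and 4910 in TP53TG1 replicates 1 to 3. As a share of all FPKM this was 0.653%, 0.735% and 0.751% in the controls and 0.652%, 0.730% and 0.785% with TP53TG1, so the shares of the groups overlapped, and the library numbered 1 was the lowest of each group. Means over the 6 libraries ran from 11.7 FPKM for PSMB9 to 327 FPKM for PSMA7, with a median of 87.2 FPKM. Within the 7 alpha genes the highest mean was 5.08 times the lowest, and within the 7 constitutive beta genes it was 5.41 times the lowest, although their products enter the particle in equal numbers. The immunoproteasome genes were the lowest group, with means of 11.7 to 24.2 FPKM.

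**Figure D1:**
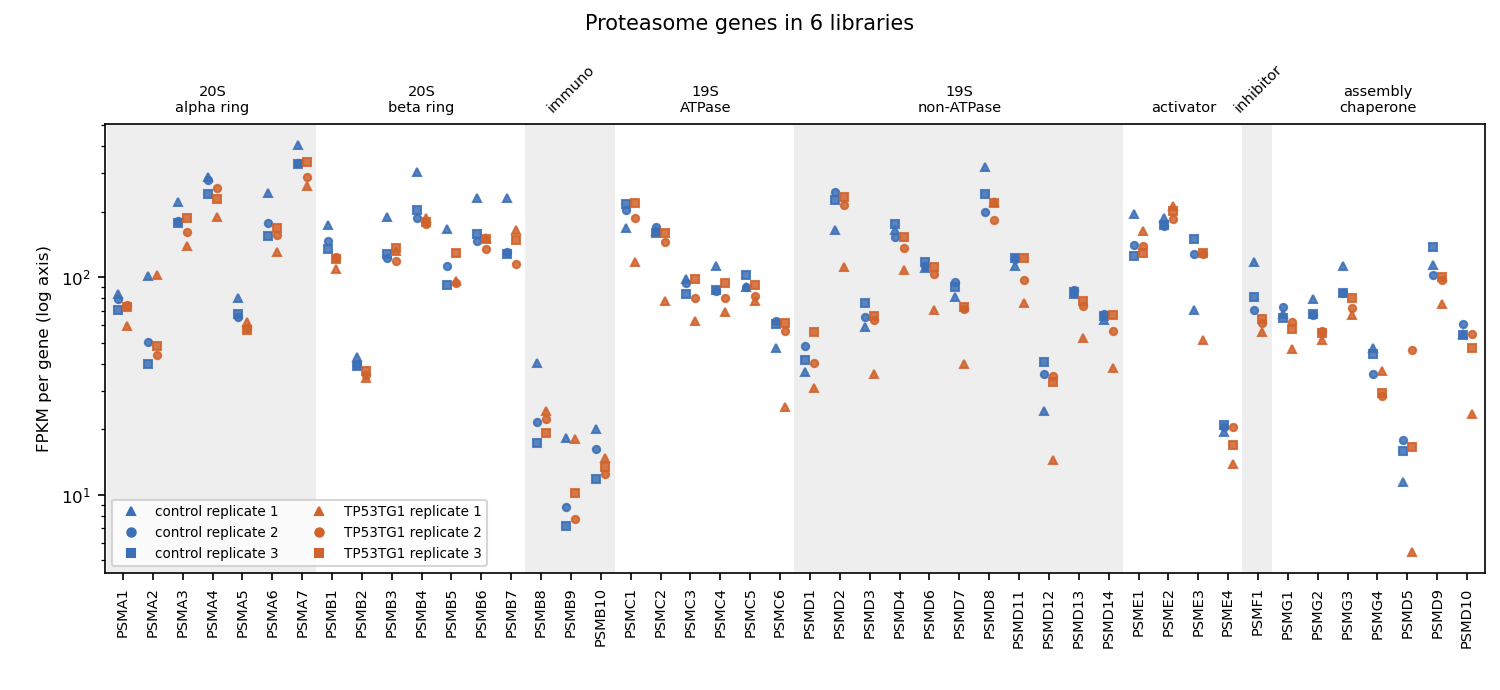
FPKM of the 46 tested proteasome genes, on a log axis, by role, with 1 point per library (blue, control; orange, TP53TG1; triangles, circles and squares are replicates 1, 2 and 3). The immunoproteasome genes PSMB8, PSMB9 and PSMB10 sit between 7.17 and 40.5 FPKM, and TP53TG1 replicate 1 is the lowest library for most 19S genes.

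By limma on log2(FPKM + 1) with Benjamini-Hochberg adjustment over all tested genes, 0 of 46 members passed 0.05, beside 0.00778% of all tested genes. No member had an unadjusted p under 0.05 either, where 0.436% of all genes did so upward and 1.91% downward. The smallest member p was 0.0926, for PSMD7 (adjusted p = 0.748). With median-of-ratios scaling 0 members passed (0.0156% of all genes), with the replicate number as a block 0 passed (1.49% of all genes), and with both 0 passed (0.0469% of all genes). Of the 46 fold changes 42 lay below 0, as did 91.4% of all tested genes.

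The median fold change of the members was -0.26 on the log2 scale, 0.085 above that of all genes, and 37 of 46 members lay above the median of all genes, which 50% of all genes do by definition. After scaling, the median of the members was 0.14 and that of all genes was -0.002. Without TP53TG1 replicate 1 the median of the members relative to all genes was -0.039. It was 0.17 without control replicate 1, 0.16 without TP53TG1 replicate 2, 0.050 without control replicate 2 and 0.047 without control replicate 3. Without both libraries numbered 1 it was 0.054, and 0.070 after scaling. With no filter on low values the relative median, unscaled, was -0.13, in a comparison with 27206 genes instead of 12853. Pair by pair, the median ratio of TP53TG1 to control FPKM over the members was 0.655 for replicates 1, 0.893 for replicates 2 and 0.976 for replicates 3, and over all genes it was 0.539, 0.919 and 0.847. The members thus stood above all genes in pairs 1 and 3 and below them in pair 2.

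The groups did not overlap for 10 members, all lower with TP53TG1, next to 13.3% of all genes, and for 0 members in the other direction (0.428% of all genes). These 10 were PSMA5, PSMB1, PSMB2, PSMD7, PSMD13, PSMF1 and the chaperone genes PSMG1, PSMG2, PSMG3 and PSMD9. After scaling, PSMD7 was the only member whose groups did not overlap, where 2.05% of all genes were lower and 2.01% higher. The 95% interval of the fold change included 0 for all 46 members in both fits. Without scaling, 11 intervals reached down to a log2 change of -1 and 3 reached up to 1. In the scaled fit 0 reached down to -1 and 10 reached up to 1, among them all 3 immunoproteasome genes, PSME1 and PSME2. For these 10 genes, after scaling, an increase of that size lay within what these libraries allow.

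**Figure D2:**
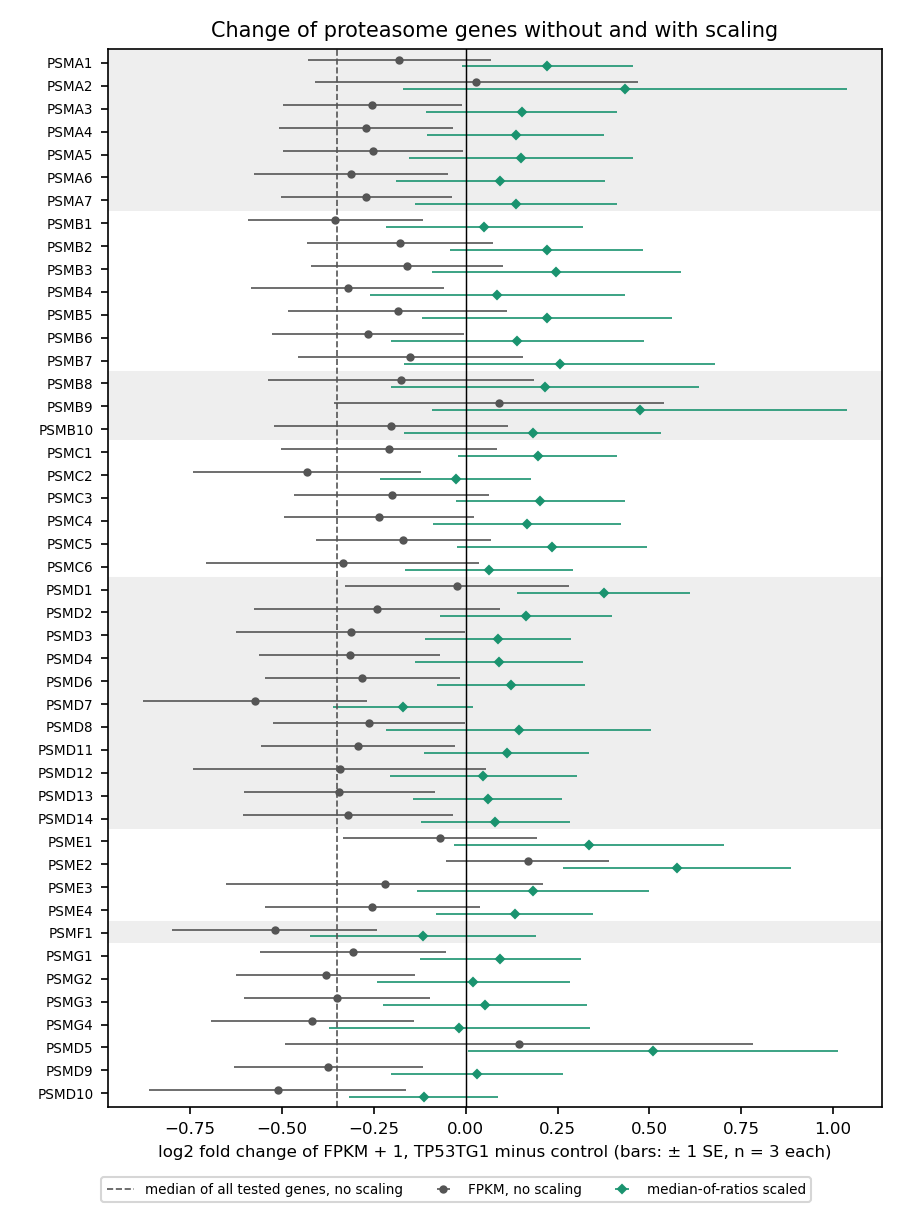
Log2 fold change (TP53TG1 minus control, 3 libraries each, bars ± 1 SE) of each proteasome gene without scaling (grey) and after median-of-ratios scaling (green), with the median of all tested genes without scaling at -0.35 as a dashed line. Most grey points lie between that line and 0, most green points lie above 0, and PSMD7 and PSME2 hold the extremes of the scaled values at -0.17 and 0.58.

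The alpha ring, encoded by PSMA1 to PSMA7, forms the outer rings of the core and closes its entrance. Its median fold change was 0.095 above that of all genes, 7 of 7 members lay above that median, and 0 of 7 were called. That difference was -0.069 without TP53TG1 replicate 1, 0.22 without control replicate 1, 0.23 without TP53TG1 replicate 2, 0.033 without control replicate 2 and 0.024 without control replicate 3. PSMA7, the most abundant member, was at 407, 334 and 331 FPKM in the controls and at 262, 288 and 339 FPKM with TP53TG1, and the groups overlapped (log2 fold change -0.27, SE 0.23; 0.14 after scaling). PSMA6, which had the smallest p of the ring, was at 243, 177 and 155 FPKM against 131, 157 and 169 FPKM (-0.31, SE 0.26; 0.09 after scaling). PSMA2 differed more between replicates than between groups. It was at 101, 50.4 and 40.0 FPKM in the controls and at 102, 43.7 and 48.5 FPKM with TP53TG1, so the library numbered 1 was the highest of each group. PSMA5, whose groups did not overlap, ran from 65.3 to 80.5 FPKM in the controls and from 57.4 to 62.4 FPKM with TP53TG1. The other 3 alpha genes had fold changes of -0.18 (PSMA1), -0.25 (PSMA3) and -0.27 (PSMA4).

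PSMB1 to PSMB7 encode the constitutive inner ring, in which PSMB5 carries the chymotrypsin-like, PSMB6 the caspase-like and PSMB7 the trypsin-like site. The median fold change of the 7 genes was 0.16 above that of all genes, and 0 of 7 were called. That difference was -0.15 without TP53TG1 replicate 1, -0.0018 without control replicate 3, 0.050 without control replicate 2, 0.304 without TP53TG1 replicate 2 and 0.307 without control replicate 1. PSMB5 was at 167, 113 and 92.2 FPKM in the controls and at 96.2, 94.5 and 129.7 FPKM with TP53TG1 (log2 fold change -0.18, SE 0.30). PSMB6 was at 230.03, 146 and 158 FPKM against 151, 135 and 149.8 FPKM (-0.26, SE 0.26). PSMB7 was at 230.1, 130.4 and 128 FPKM against 165, 115 and 148 FPKM (-0.15, SE 0.31). For all 3 catalytic genes control replicate 1 was the highest library and the groups overlapped.

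PSMB4, a structural beta subunit and the most abundant of the ring, was at 305, 187 and 203 FPKM in the controls and at 187, 175 and 180.1 FPKM with TP53TG1 (-0.32, SE 0.26; 0.09 after scaling). PSMB2, the least abundant, varied little, at 43.0, 39.3 and 39.2 FPKM against 34.3, 35.6 and 37.1 FPKM (-0.18, SE 0.25). PSMB1, another structural subunit, was at 174, 146 and 134 FPKM against 109, 124 and 121 FPKM (-0.36, SE 0.24; 0.05 after scaling). Neither PSMB1 nor PSMB2 overlapped between groups, and both did after scaling. PSMB3 had a fold change of -0.16.

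The immunoproteasome genes lie on chromosome 6 (PSMB8 and PSMB9, at the same locus as TAP1 and TAP2 in the MHC class II region) and on chromosome 16 (PSMB10). The sequences before their start sites are shown with those of PSME1 and PSME2 because interferon is known to induce these 5 members. A pattern of GAAA, any 2 bases and GAAA again, searched on both strands as a simple form of an interferon regulatory factor element, occurred in the window from 250 bases before to 50 bases after a start site in 7 of 42 members with a RefSeq window (16.7%) and in 4.38% of all 27305 genes. The 7 members were PSMA4, PSMB4, PSMB8, PSMB10, PSME1, PSME2 and PSMG4. Each line gives 120 bases before and 20 bases from the start site on, 5′ to 3′ on the gene's strand, in build GRCh38.p14, with a match in capitals.
PSMB8, chr6:32844028-32844167, minus strand: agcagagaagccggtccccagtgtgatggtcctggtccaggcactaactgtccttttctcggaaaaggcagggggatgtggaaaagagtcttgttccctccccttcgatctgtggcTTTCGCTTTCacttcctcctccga
PSMB10, chr16:67936831-67936970, minus strand: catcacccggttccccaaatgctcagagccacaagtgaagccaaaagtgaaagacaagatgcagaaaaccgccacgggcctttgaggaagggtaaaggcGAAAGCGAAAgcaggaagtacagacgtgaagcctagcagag
PSME1, chr14:24136074-24136213, plus strand: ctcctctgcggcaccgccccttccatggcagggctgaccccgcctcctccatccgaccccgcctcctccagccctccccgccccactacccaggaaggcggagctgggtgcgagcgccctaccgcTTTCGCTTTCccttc
PSME2, chr14:24146591-24146730, minus strand: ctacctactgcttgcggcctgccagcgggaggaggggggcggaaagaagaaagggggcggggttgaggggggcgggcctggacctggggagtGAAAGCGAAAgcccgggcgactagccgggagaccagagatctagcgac
PSMB9, chr6:32854072-32854211, plus strand: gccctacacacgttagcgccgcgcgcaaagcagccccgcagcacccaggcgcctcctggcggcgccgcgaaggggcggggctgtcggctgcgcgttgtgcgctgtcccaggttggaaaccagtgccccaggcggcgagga
Counted with the start site as 0, the matches span -4 to 5 in PSMB8, -21 to -12 in PSMB10, 5 to 14 in PSME1 and -28 to -19 in PSME2. PSMB9 holds no match in its window, which says only that these letters are not there. PSMB8 has 2 windows, and the 1 shown was chosen because it holds the match, while the other holds none. A match describes the sequence and was not tested for binding.

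None of the 3 immunoproteasome genes was called, and the spread between replicates was wider than the difference between groups. With all 6 libraries their median fold change was 0.17 above that of all genes, and all 3 lay above that median. The median level of the 3 genes relative to all genes had an SD of 0.57 between replicates, and the difference was not tested. Relative to all genes, PSMB10 went from 0.15 to -0.14 without TP53TG1 replicate 1, and to 0.47 with protein-coding transcripts only. That all 3 lay above the median thus depends on TP53TG1 replicate 1. PSMB8 was at 40.5, 21.7 and 17.3 FPKM in control replicates 1 to 3 and at 24.4, 22.2 and 19.3 FPKM with TP53TG1 (log2 fold change -0.18, SE 0.36, adjusted p = 0.798; 0.22, SE 0.42 after scaling). PSMB9 was at 18.3, 8.78 and 7.17 FPKM against 18.1, 7.76 and 10.1 FPKM (0.09, SE 0.45, adjusted p = 0.909; 0.47, SE 0.56 after scaling). PSMB10 was at 20.1, 16.2 and 11.8 FPKM against 14.7, 12.5 and 13.4 FPKM (-0.20, SE 0.32, adjusted p = 0.761; 0.18, SE 0.35 after scaling). In both groups the library numbered 1 was the highest for all 3 genes, and the groups overlapped for each. After scaling the 95% intervals were -0.77 to 1.20 for PSMB8, -0.85 to 1.80 for PSMB9 and -0.64 to 1.00 for PSMB10. Summed, PSMB8, PSMB9 and PSMB10 made up 11.2%, 10.7% and 8.76% of the FPKM of the 6 catalytic genes in the controls and 12.2%, 11.0% and 9.10% with TP53TG1. The share was higher with TP53TG1 in each of the 3 pairs, the groups overlapped, and the difference was not tested.

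The ratio of each inducible subunit to the constitutive subunit it replaces lies within a library and needs no scaling between libraries. PSMB8 was at 24.2%, 19.2% and 18.8% of PSMB5 in the controls and at 25.3%, 23.5% and 14.9% with TP53TG1. PSMB9 was at 7.96%, 6.02% and 4.53% of PSMB6 against 11.99%, 5.77% and 6.77%, and PSMB10 at 8.74%, 12.4% and 9.24% of PSMB7 against 8.91%, 10.9% and 9.03%. The mean log2 ratio differed by 0.0051 for PSMB8 (SD 0.20 in the controls and 0.42 with TP53TG1; exact two-sided permutation p = 1). It differed by 0.37 for PSMB9 (SD 0.41 and 0.56; exact permutation p = 0.5) and by -0.064 for PSMB10 (SD 0.27 and 0.16; exact permutation p = 0.7). All 3 were 1 after Benjamini-Hochberg adjustment, and 3 against 3 libraries cannot give a p under 0.1. The ratio of PSMB8 to PSMB5 was the highest of the 3 in every library. With protein-coding transcripts alone the difference for PSMB10 was 0.29, since coding transcripts held 27.3% to 78.0% of the FPKM of PSMB10.

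**Figure D3:**
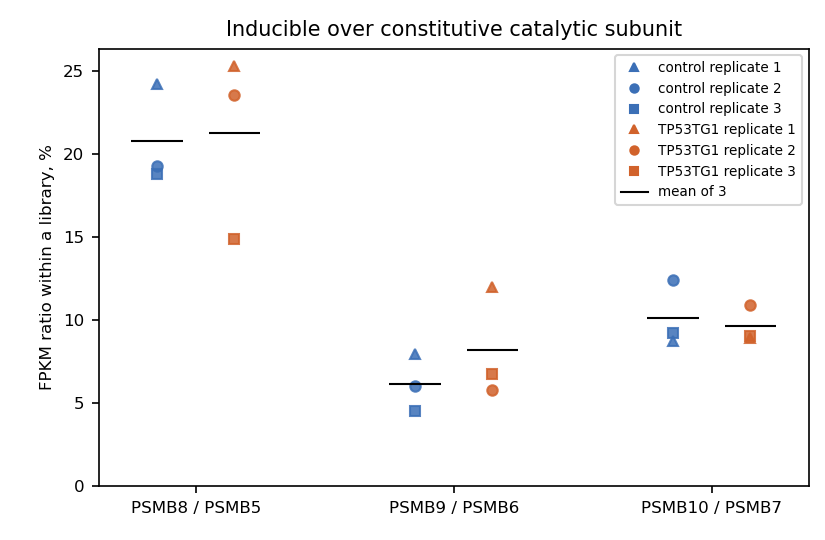
FPKM of PSMB8, PSMB9 and PSMB10 as a percentage of PSMB5, PSMB6 and PSMB7 in the same library (blue, control; orange, TP53TG1; symbols mark replicates 1 to 3; bars, mean of 3). The groups overlap in each ratio, and the ratio of PSMB8 to PSMB5 is the highest, at 14.9% to 25.3%.

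PSMC1 to PSMC6 encode the ATPases that unfold substrates at the base of the regulatory particle. Their median fold change was 0.13 above that of all genes, and 0 of 6 were called. That difference was 0.043 without TP53TG1 replicate 1, 0.056 without TP53TG1 replicate 3, 0.061 without control replicate 3 and 0.22 without TP53TG1 replicate 2. PSMC2 was at 164, 170.4 and 159 FPKM in the controls and at 77.7, 145 and 159.7 FPKM with TP53TG1 (log2 fold change -0.43, SE 0.31; -0.03 after scaling). PSMC4 was at 112, 86.8 and 87.7 FPKM against 68.8, 80.5 and 93.6 FPKM (-0.24, SE 0.26), and PSMC6, the lowest, at 47.1, 63.0 and 61.2 FPKM against 25.4, 56.7 and 61.7 FPKM (-0.33, SE 0.37; 0.06 after scaling). In each of these genes TP53TG1 replicate 1 was the lowest library, and replicates 2 and 3 of the groups lay close together.

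PSMC1, the most abundant ATPase gene, was at 169, 204 and 217 FPKM against 117, 188 and 219 FPKM (-0.21, SE 0.29). Its values are uncertain, because its processed pseudogene PSMC1P5 was listed at 0, 90.3 and 40.9 FPKM in the controls and at 0, 36.0 and 9.52 FPKM with TP53TG1, and reads of near-identical copies can be split between them. With PSMC1P5 and PSMC1P1 added, the fold change of PSMC1 relative to all genes went from 0.14 to -0.018. PSMC3 and PSMC5 had fold changes of -0.20 and -0.17.

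The 11 non-ATPase subunits include the ubiquitin receptor PSMD4 and the deubiquitinase PSMD14. Their median fold change was 0.036 above that of all genes, 11 of 11 lay below 0, and 0 of 11 were called. That difference was -0.018 without TP53TG1 replicate 3, 0.019 without TP53TG1 replicate 1, 0.066 without control replicate 3 and 0.11 without TP53TG1 replicate 2. PSMD7, the inactive partner of PSMD14 in the lid, was at 81.5, 95.4 and 90.2 FPKM in the controls and at 39.8, 71.5 and 73.2 FPKM with TP53TG1. It had the lowest fold change of all members, at -0.57 (SE 0.30, 95% interval -1.26 to 0.12, adjusted p = 0.748). After scaling its values were 73.3, 80.3 and 76.2 against 66.3, 64.8 and 72.8, still without overlap, and the fold change was -0.17 (SE 0.19, interval -0.62 to 0.28). PSMD7 was lower with TP53TG1 in each of the 3 pairs, at 0.489, 0.750 and 0.812 of the control with the same number.

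PSMD14 was at 63.6, 67.5 and 66.3 FPKM in the controls and at 38.4, 56.4 and 66.7 FPKM with TP53TG1 (-0.32, SE 0.28; 0.08 after scaling). PSMD4 was at 164, 153 and 175 FPKM against 108, 136 and 153 FPKM (-0.32, SE 0.25; 0.09 after scaling). In both genes TP53TG1 replicate 1 was the lowest library, and the groups overlapped. PSMD8, the most abundant non-ATPase gene, was at 322, 199 and 239.9 FPKM against 221, 184 and 218 FPKM (-0.26, SE 0.26). PSMD12, a lid scaffold subunit and the lowest of the group, was at 24.1, 35.8 and 40.8 FPKM against 14.5, 35.2 and 32.9 FPKM (-0.34, SE 0.40). PSMD13, another lid subunit, had control values of 83.9 to 87.4 FPKM and TP53TG1 values of 52.7 to 78.0 FPKM (-0.34, SE 0.26; 0.06 after scaling). The other 5 had fold changes between -0.31 (PSMD3) and -0.02 (PSMD1).

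Among the activators, PSME2 had the highest fold change of all members. PSME1 and PSME2 encode the alpha and beta subunits of the interferon-inducible activator, PSME3 its nuclear relative and PSME4 a large activator of nuclear proteasomes. The median fold change of these 4 genes was 0.20 above that of all genes, all 4 lay above that median, and 0 of 4 were called. Their median level relative to all genes had an SD of 0.21 between replicates, and the difference was not tested. PSME2 was at 187, 173 and 173 FPKM in the controls and at 212, 185 and 202 FPKM with TP53TG1. TP53TG1 replicate 2 lay just below control replicate 1, and PSME2 was higher with TP53TG1 in each of the 3 pairs, at 1.13, 1.07 and 1.17 of the control. The log2 fold change was 0.17 (SE 0.22, adjusted p = 0.749), and after scaling it was 0.58 (SE 0.31, interval -0.15 to 1.30, unadjusted p = 0.105, adjusted p = 1.00), where scaled values were 168, 145 and 146 against 352, 168 and 201. The value of TP53TG1 replicate 1 weighs on this: without both libraries numbered 1 the scaled fold change was 0.34. A transcript of 185 nt (ENST00000630027) held 25.4 FPKM of PSME2 in TP53TG1 replicate 1 and was listed at 0 in the other 5, and without it the scaled fold change was 0.51.

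PSME1 was at 194, 141 and 125 FPKM in the controls and at 163, 139.7 and 129 FPKM with TP53TG1 (-0.07, SE 0.26; 0.34, SE 0.37 after scaling). PSME2 was thus at 0.963, 1.23 and 1.39 times PSME1 in the controls and at 1.30, 1.33 and 1.57 times with TP53TG1, with overlap. PSME3 was at 70.7, 127 and 149 FPKM against 51.2, 128 and 129.5 FPKM (-0.22, SE 0.43), so the library numbered 1 was the lowest of each group. PSME4, the lowest of the 4, was at 19.5, 20.5 and 21.0 FPKM against 13.9, 20.4 and 16.9 FPKM (-0.25, SE 0.29). PSMF1, which encodes a protein that inhibits the core in vitro, was at 117, 70.3 and 80.9 FPKM against 56.2, 61.5 and 64.5 FPKM (-0.52, SE 0.28, adjusted p = 0.748; -0.12, SE 0.31 after scaling). Its groups did not overlap before scaling and did after it.

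Assembly chaperones are encoded by 7 genes, PSMG1 to PSMG4 for the core and PSMD5, PSMD9 and PSMD10 for the base of the regulatory particle. Their median fold change relative to all genes was -0.024, 2 of 7 lay above that median, and 0 of 7 were called. With 1 library left out the relative median lay between -0.12 (without TP53TG1 replicate 1) and 0.075 (without TP53TG1 replicate 2), and it was also above 0 without control replicate 1 (0.060) and without TP53TG1 replicate 3 (0.038). It was -0.091 without control replicate 2 and -0.049 without control replicate 3. PSMG2 was at 79.6, 67.2 and 67.5 FPKM in the controls and at 51.6, 56.4 and 55.4 FPKM with TP53TG1 (-0.38, SE 0.25; 0.02 after scaling). PSMG4 was at 47.4, 35.7 and 44.3 FPKM against 36.9, 28.4 and 29.3 FPKM (-0.42, SE 0.28), and without TP53TG1 replicate 1 its value relative to all genes was -0.41, from -0.068 with it. PSMD9 was at 114, 103 and 137 FPKM against 75.0, 97.4 and 100.4 FPKM (-0.37, SE 0.26; 0.03 after scaling). PSMG1 and PSMG3 had fold changes of -0.31 and -0.35, and PSMD10, an oncoprotein also named gankyrin, of -0.51 (SE 0.35; -0.11 after scaling).

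PSMD5 had the widest spread of all members, at 11.4, 17.8 and 15.9 FPKM in the controls and at 5.44, 46.4 and 16.5 FPKM with TP53TG1. Of the 46.4 FPKM in TP53TG1 replicate 2, 31.3 FPKM were assigned to a transcript of 219 nt (ENST00000625444) that was listed at 0 in the other 5 libraries. Without that transcript the fold change of PSMD5 went from 0.15 (SE 0.64) to -0.38, and after scaling to -0.0081. Antisense or neighbouring genes with FPKM of their own also lie at PSMD5, PSMA3, PSMB8 and PSMG3 (PSMD5-AS1, PSMA3-AS1, PSMB8-AS1 and PSMG3-AS1). The annotated spans of PSMB8 and PSMB9 overlap on opposite strands, and that of TAP1 lies inside the span of PSMB9, on the opposite strand. Whether the libraries keep the strand is not given in the sources used here, so these genes share some uncertainty.

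The balance of core and regulatory particle varied more between replicate numbers than between the groups. The geometric mean of the 14 constitutive core genes was 1.82, 1.24 and 1.16 times that of the 17 regulatory particle genes in control replicates 1 to 3, and 1.94, 1.27 and 1.22 times with TP53TG1. The ratio was thus higher with TP53TG1 in each of the 3 pairs, while the groups overlapped, and the difference was not tested. Control replicate 1 lay above the mean of replicates 2 and 3 for 7 of 7 alpha, 7 of 7 beta and 3 of 3 immunoproteasome genes, but for 2 of 6 ATPase and 2 of 11 non-ATPase genes. TP53TG1 replicate 1, low for most genes, lay above the mean of replicates 2 and 3 for 3 of 3 immunoproteasome, 4 of 7 beta and 2 of 7 alpha genes, and for 0 of 6 ATPase and 1 of 11 non-ATPase genes.

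Transcript length moved with this. Core and immunoproteasome messages are short, with median lengths of 842 to 1023 nt by group, and those of the regulatory particle are longer, at 1351 nt for ATPase and 1700 nt for non-ATPase genes. Over the 46 members, log2 length and the departure of replicate 1 from replicates 2 and 3 had a Pearson r of -0.45 and a Spearman rho of -0.53 in the controls, and of -0.40 and -0.48 with TP53TG1. These are descriptions across genes, which share the library and are not independent replicates. Over 11272 protein-coding genes r was -0.55 and -0.51, of the same sign as in the members. Length did not go with the difference between groups, with r = -0.0049 and rho = -0.02 over the members. The part that length plays in the levels of libraries numbered 1 was not tested beyond this.

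**Figure D4:**
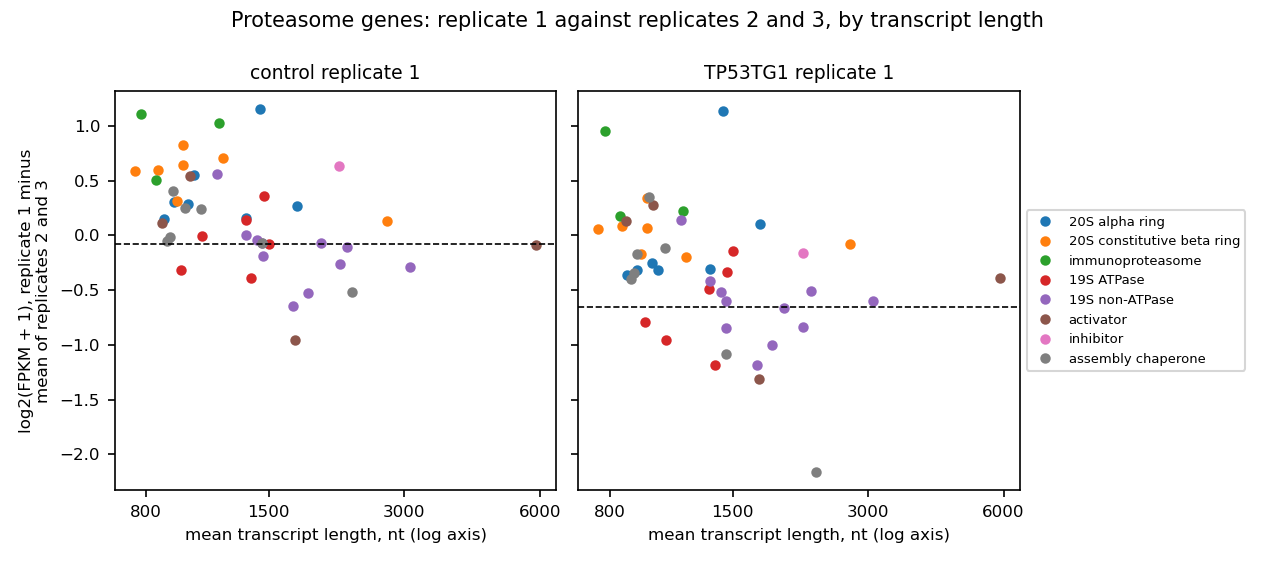
Departure of replicate 1 from the mean of replicates 2 and 3 (log2 of FPKM + 1) against the mean transcript length of each proteasome gene (log axis), for control (left) and TP53TG1 (right), coloured by role, with the median of all tested genes as a dashed line. Short core and immunoproteasome genes lie mostly above the line and longer 19S genes nearer to it or below it, with r = -0.45 and -0.40.

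Transcripts within a gene were also assigned differently in the libraries numbered 1. Of the 46 members, 41 had a protein-coding transcript as the leading one, and in 12 it held at least 90% of the gene's FPKM in every library. In 10 members the share of the leading transcript ranged over more than 30 percentage points. PSMD1, a large scaffold subunit of the base, had 23.8%, 98.1% and 87.3% of its FPKM in its transcript of 3326 nt in the controls and 2.78%, 89.9% and 85.1% with TP53TG1. For PSME4 the transcript of 7099 nt held 23.0%, 79.9% and 80.9% against 13.3%, 79.1% and 72.3%, and the rest in libraries numbered 1 was mostly a processed transcript of 1422 nt. For PSMA2 the transcript of 1487 nt was steady at 36.9 to 50.8 FPKM in all 6 libraries, while the one of 683 nt was at 60.2, 7.27 and 1.51 FPKM against 51.6, 4.33 and 3.05 FPKM.

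In PSMC6 the share of the leading transcript was 75.2%, 50.8% and 44.0% in the controls and 73.1%, 24.0% and 12.8% with TP53TG1, with the libraries numbered 1 the highest of the 6, and a second coding transcript, of 1590 nt, was at 24.3 and 37.8 FPKM in TP53TG1 replicates 2 and 3. The leading one has 1560 nt, and estimates for transcripts of such similar length are uncertain. The difference in share between groups was not tested. In PSMA5, PSMC1, PSMD12, PSMD13 and PSMF1 the leading transcript was not annotated as protein-coding. For PSMA5 it was a processed transcript that held 65.5% to 82.6% of the gene's FPKM. Another processed transcript, of 1503 nt, held 15.6% to 27.6%, and protein-coding transcripts held 1.81% to 6.47%. The level of PSMA5 above, and its lack of overlap between groups, is thus mainly that of transcripts not annotated as coding.

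**Figure D5:**
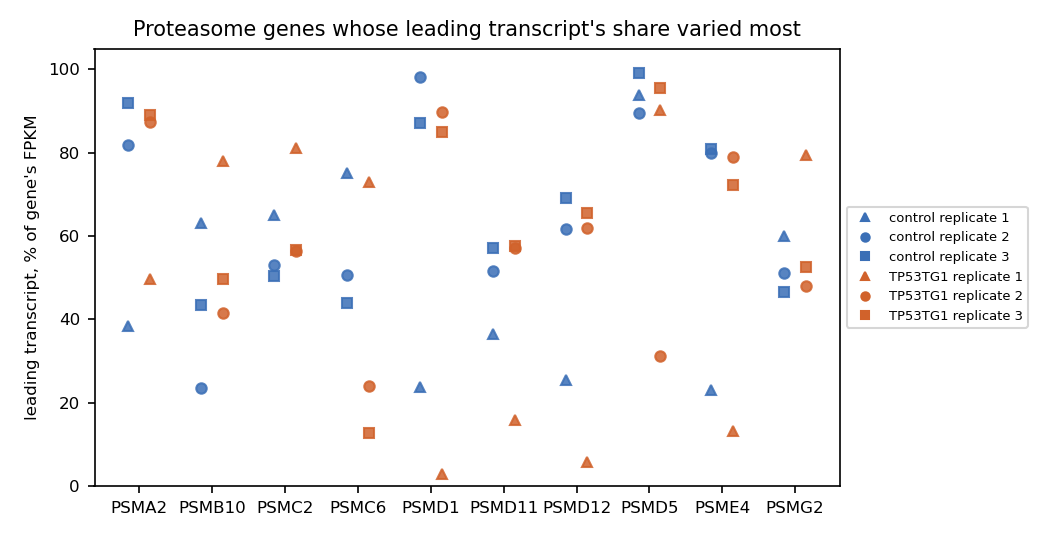
Share of the leading transcript in the FPKM of the 10 proteasome genes in which it ranged over more than 30 percentage points, 1 point per library (blue, control; orange, TP53TG1; triangles, circles and squares are replicates 1, 2 and 3). In 5 genes (PSMA2, PSMD1, PSMD11, PSMD12 and PSME4) both triangles are the lowest points, and in PSMB10, PSMC2, PSMC6 and PSMG2 they are the highest.

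Other genes of the pathway had a median close to that of all genes. Of 25 listed, all 25 were tested, 0 were called, 25 lay below 0 without scaling, and their median fold change relative to all genes was -0.011. SEM1, a small subunit of the lid, was at 381, 377 and 352 FPKM in the controls and at 192, 309 and 343 FPKM with TP53TG1 (log2 fold change -0.44, SE 0.27; -0.03 after scaling). POMP, which helps assemble the core, was at 49.3, 29.99 and 18.2 FPKM against 28.1, 25.6 and 29.5 FPKM (-0.11, SE 0.38). AKIRIN2, which brings proteasomes into the nucleus, was at 35.9, 35.8 and 48.2 FPKM against 20.4, 34.2 and 24.5 FPKM (-0.60, SE 0.31, adjusted p = 0.748; -0.20 after scaling), and its groups overlapped only after scaling. RPS27A, which encodes ubiquitin fused to a ribosomal protein, had a fold change of -0.43 (SE 0.29; -0.03 after scaling).

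NFE2L1, the transcription factor known to raise proteasome genes when the particle is inhibited, was at 47.1, 81.4 and 114 FPKM in the controls and at 34.3, 97.6 and 61.1 FPKM with TP53TG1 (-0.36, SE 0.45; 0.04 after scaling), and NFE2L2, its relative in the oxidative stress response, at 42.5, 60.2 and 56.4 FPKM against 25.9, 55.7 and 30.2 FPKM (-0.56, SE 0.35; -0.16 after scaling). Both overlapped between groups. The letters TGACNNNGC, a core of the element these factors bind, occurred on either strand in the windows of 15 of 42 members (35.7%) and of 16.1% of all genes, and no match overlapped one of the interferon pattern. The 15 included PSMD1, PSMD3, PSMD12, PSMC4, PSMC5, PSME1 and PSME2.

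No tested gene that induces the immunoproteasome or works beside it was called between the groups. Of 13 listed, 11 were tested, at means of 2.45 to 39.3 FPKM, and 0 were called, with a median fold change 0.066 above that of all genes. The receptor kinase gene JAK2 did not reach a mean of 1 FPKM. IRF1, a factor that binds the interferon pattern above, was at 21.0, 21.2 and 23.6 FPKM in the controls and at 15.9, 23.3 and 15.2 FPKM with TP53TG1 (-0.28, SE 0.30; 0.11 after scaling). NLRC5, an activator of MHC class I genes, was at 1.44, 1.40 and 2.89 FPKM against 1.69, 2.50 and 4.79 FPKM (0.42, SE 0.40), and STAT2 at 7.50, 13.1 and 16.9 FPKM against 2.69, 13.0 and 10.2 FPKM (-0.63, SE 0.54). TAP1 and TAP2, the peptide transporter genes at the locus of PSMB8 and PSMB9, had fold changes of -0.31 (SE 0.35) and -0.46 (SE 0.48), and the interferon-gamma receptor gene IFNGR2 of -0.30 (SE 0.29). All of these overlapped between groups.

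Leukocytes express the immunoproteasome constitutively, so their markers were read beside it. Of 9 markers 2 reached a mean of 1 FPKM, CD68 and CD14, PTPRC was at 0.13 FPKM or less in every library, and MS4A1 was listed at 0. Their summed FPKM ran from 34.3 to 65.5 in the controls and from 47.7 to 67.7 with TP53TG1, almost all of it CD68. In bulk RNA, fewer cells of a type and less RNA per cell cannot be told apart. Summed fibroblast markers ran from 16.4 to 19.5 FPKM in the controls and from 19.6 to 25.9 FPKM with TP53TG1, and 4 of 5 reached 1 FPKM. Of these COL1A1 was at 2.79, 1.81 and 2.85 FPKM in the controls and at 10.9, 3.05 and 3.19 FPKM with TP53TG1, without overlap. COL3A1, DCN and LUM overlapped, and 0.428% of all tested genes were higher without overlap. After scaling 3 of the 4 were higher without overlap, beside 2.01% of all tested genes. Summed endothelial markers, 2 of 4 of them at 1 FPKM, from 6.84 to 12.2 FPKM and from 1.92 to 9.10 FPKM. The summed hepatocyte markers ran from 77.7 to 100.6 FPKM and from 33.5 to 86.6 FPKM. The part of other cells in the values of proteasome genes was not tested.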

How the data were processed

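Per the labels' protocols, total RNA was extracted with TRIzol, treated with DNase I and made into libraries with an Illumina TruSeq kit. The submitters' processing notes list HISAT2, StringTie and the build GRCh38.p10, with versions, settings and annotation not given in the sources used here. Each transcript has 1 deposited value per library, read here as FPKM because the libraries sum to different totals while the file headers name no unit; coverage per base would also fit these values. These are not counts, so no count test was run.

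Transcripts were summed per gene. Blank symbols were filled from libraries listing the same transcript. Lengths, biotypes and gene positions came from GENCODE 29 (GRCh38), which held 99.8% of 199234 transcripts, and promoter windows from RefSeq (GRCh38.p14). No 2 libraries were identical. An exact 0 may be a failed estimate, and such genes are called listed at 0.

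Genes that reached a mean of 1 FPKM were fitted on log2(FPKM + 1), a scale that understates the change of low genes, with limma 3.58.1 (lmFit, eBayes with a trend, R 4.3.3), group only, all 6 libraries, Benjamini-Hochberg over all tested genes, threshold 0.05. The fit was tested on simulated data. Ratios within a library were tested by exact permutation (scipy 1.17.1). Joins used Python 3.11.15 and pandas 2.3.3, and figures matplotlib 3.10.9. Precision rests on 3 libraries per group, and no counting interval was derived from FPKM.

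The members, gene lists and tests were chosen with earlier results of these data known. Named genes were the immunoproteasome genes and their counterparts, the highest and lowest mean and up to 2 smallest p of each role, all activators, PSMF1, PSMD4 and PSMD14, and, of each other list, the 4 tested genes of smallest p plus NFE2L1, POMP, IRF1 and TAP1; 1 listed gene is not reported here. Members outside this rule are given as fold changes alone, and those singled out for a transcript or for lack of overlap were chosen after their values were seen. Alternatives were other filters and pseudocounts, TPM and median-of-ratios scaling, a replicate block, protein-coding transcripts only and leaving out libraries.

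The labels number both groups from 1 to 3. Deviations from the group means correlated at 0.710, 0.562 and 0.289 between libraries of the same number, all above 0.1, and by that rule the numbers were taken as pairs. Unlike numbers reached 0.400 (control replicate 3 with TP53TG1 replicate 2) and 0.302 (control replicate 2 with TP53TG1 replicate 3). Deviations within a group sum to 0, so an outlying replicate 1 in each group pushes replicates 2 and 3 towards positive correlations. The rule therefore cannot show that replicates 2 and 3 were matched. A pair here means only libraries of the same number, which comes from the data and not from the design.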

Additional observations from a re-analysis of the deposited data

How the results depend on the processing

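No proteasome gene was called under any of the alternatives run. The number of all genes called was 1 as reported. It was 0 with no filter on low values, 2 with a mean of at least 5 FPKM, 2 with median-of-ratios scaling, 192 with the replicate block, 6 with the block and scaling, 0 with protein-coding transcripts only, and 0 to 1 when 1 library was left out (0 without control replicate 1). Without both libraries numbered 1 and with scaling, an alternative chosen after seeing the data, it was 10. The unscaled replicate block left 2 residual degrees of freedom, and the variance of each gene was taken wholly from the trend over all genes. Its 192 calls, and the share of 1.49% given beside the members, thus rest on no gene-specific spread. With no filter, which brings in many genes near 0, the median fold changes relative to all genes were -0.13 for all members, -0.092 for ATPase, -0.18 for non-ATPase, -0.014 for activator and -0.24 for chaperone genes. With the filter these medians were 0.085 for all members, 0.13 for ATPase, 0.036 for non-ATPase, 0.20 for activator and -0.024 for chaperone genes. The median of all members ran from -0.039 (without TP53TG1 replicate 1) to 0.17 when 1 library was left out. The difference in the log2 ratio of PSMB8 to PSMB5 ran from -0.14 to 0.24 with 1 library left out and was -0.023 without both libraries numbered 1. That of PSMB10 to PSMB7 ran from -0.16 to 0.091 with 1 library left out and was 0.29 with protein-coding transcripts only. The log2 ratio of PSMB9 to PSMB6, which differed by 0.37, was -3.65, -4.05 and -4.46 in control replicates 1 to 3. With TP53TG1 it was -3.06, -4.12 and -3.88. Only TP53TG1 replicate 1 lay outside the range of the controls, so that library weighs on this difference. The replicate block changed no call of a member: the smallest adjusted p was 0.483 with it, and the exact test over sign changes within 3 pairs cannot give a p under 0.25.

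For single genes, 733 values relative to all genes were compared over 43 genes. Of these, 711 moved by less than 1 SD between replicates and 22 by more, 9 of them without TP53TG1 replicate 1. Under a first rule that counted each change of sign as a reversal, 106 of the values, in 38 of 43 genes, would have been reversed, 24 of them without TP53TG1 replicate 1. The rule was changed after this was seen, because no single gene was called in any setting (smallest adjusted p 0.476). The direction of a single gene against the median of all genes is therefore not settled by these data. The cause of these shifts was not tested.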
